A study of Mus musculus with 33 samples.

Results

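The dK9.1 clone, named ΔK9.1 in the study, was followed from the undifferentiated state (day 0) to day 8 of embryoid body (EB) differentiation, and its 3 day 8 libraries were compared with its 3 day 0 libraries. These 6 libraries were chosen by their labels from the 33 of the series, which cover 3 lines on days 0, 4, 6 and 8. The parental line, E14Tg2a, is a mouse embryonic stem cell line of 129/Ola origin. In dK9.1 a region marked by H3K9me3, a histone modification typical of silent chromatin, was deleted by CRISPR on both alleles between the enhancer and the promoter of *Nanog*, so day 0 and day 8 carry the same deletion. dK9.1 and the other deleted line, dK9.2, are each a single clone, and a change within dK9.1 cannot by itself be assigned to the deletion. Day 0 cells were grown in serum with LIF, a cytokine that sustains self-renewal. Day 8 cells had been aggregated, cultured without LIF in serum and then replated on gelatine, so that they were attached outgrowths rather than floating bodies. E14Tg2a and dK9.2, with 6 libraries each on the same days, serve here only as a comparison. The labels number the replicates from 1 to 3, and the study describes independent differentiation assays with the lines run in parallel.

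In serum and LIF, embryonic stem cells are kept undifferentiated by a network of transcription factors that includes NANOG, OCT4 (*Pou5f1*), SOX2 and ESRRB. After LIF is withdrawn, the naive factors are known to be lost first, cells pass through a formative state resembling the early epiblast, and aggregates then form derivatives of the primitive streak, the mesoderm and the endoderm. An outer layer of primitive endoderm, which matures into visceral endoderm and secretes serum proteins, is a usual feature of EBs. Expression is given in TPM, a measure of transcript abundance corrected for transcript length and for the total of the library. RNA was measured in bulk, so fewer cells of a type and less RNA per cell cannot be told apart.

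Over 8 days the transcriptome of dK9.1 changed in both directions to a similar extent. Of 15063 genes tested, whose mean reached 1 TPM on either day, 1723 were higher on day 8 (11.4%) and 1618 were lower (10.7%). A gene counted as changed when its adjusted p was below 0.05 and its log2 fold change beyond 1 in size (limma on log2(TPM + 1), Benjamini-Hochberg). The median log2 fold change of all genes tested was 0.01, and those of the higher and lower genes were 1.60 and -1.52. Changes above 3 on the log2 scale were seen for 194 of the higher and 96 of the lower genes. The day 8 libraries lay wholly above the day 0 libraries for 27.5% of all genes tested and wholly below them for 28.4%, and the groups did not overlap for 1708 of the higher and 1609 of the lower genes. Fold changes are differences of log2(TPM + 1), so those of genes with low TPM are understated. TPM do not hold the depth of each library. The number of genes at 1 TPM or more was 13433 to 13670 on day 0 and 13601 to 13795 on day 8. The most abundant genes on both days encode ribosomal proteins, led by *Rps21* on day 0 (8328, 6759 and 6734 TPM) and *Rps14* on day 8 (6637, 6955 and 9287 TPM). On day 0 the undifferentiated markers *Nanog*, *Pou5f1*, *Sox2*, *Zfp42*, *Esrrb* and *Klf4* were all at 53.4 TPM or more, and the fibroblast collagens *Col1a1* and *Col3a1* at 0.45 TPM or less. *Thy1*, another fibroblast marker, was higher on day 0 than on day 8. The stromal and smooth muscle list, which holds these genes, summed to 24.4, 19.6 and 21.9 TPM on day 0. The 3 day 8 libraries were not alike: replicate 3 stood apart from the others, and without it 2068 genes were higher and 1783 lower.

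**Figure D1:**
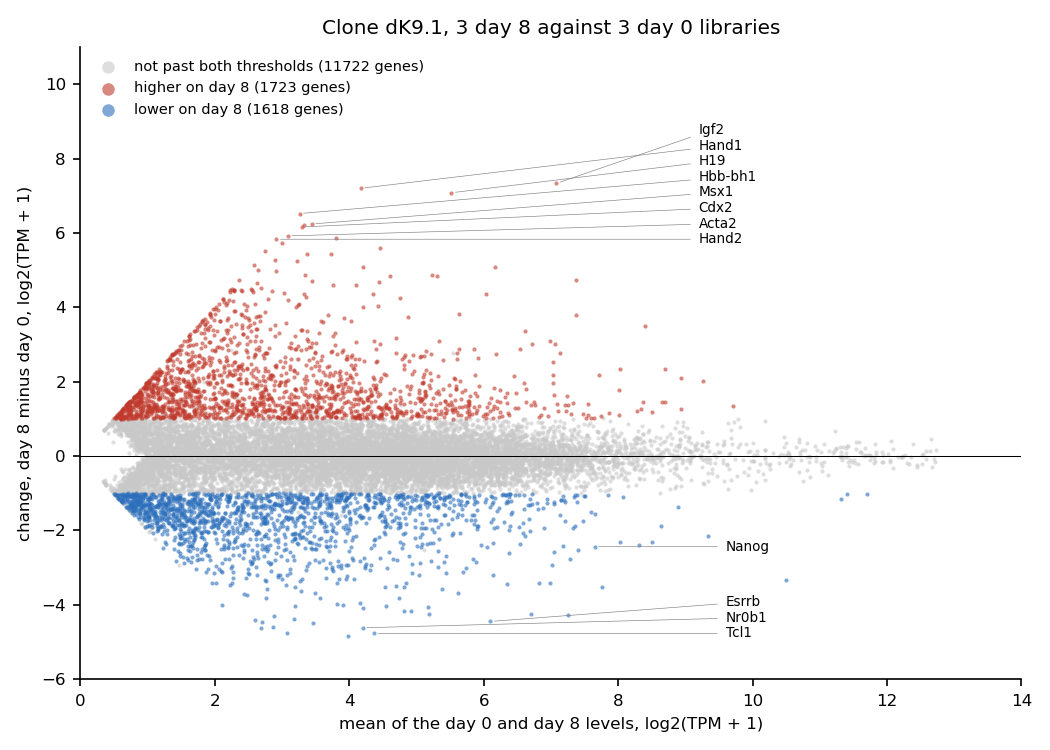
Change from day 0 to day 8 in dK9.1 (y axis, day 8 minus day 0 in log2(TPM + 1)) against the mean of the levels on both days (x axis, log2(TPM + 1)) for 15063 genes, each a point. The 1723 higher genes (red) and the 1618 lower genes (blue) lie beyond 1 and -1, and *Nanog* and those of the largest changes that stand in a gene list are named, from *Igf2* at 7.33 to *Tcl1* at -4.77.

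*Nanog*, which lies beside the deleted stretch, was lower in all 3 day 8 libraries and was not lost. Its level was 456, 460 and 486 TPM on day 0 and 70.6, 49.3 and 177 TPM on day 8 in replicates 1, 2 and 3. The groups did not overlap, and replicate 3 retained most. The log2 fold change was -2.44 (SE 0.39, adjusted p = 0.0019, limma), from 468 ± 16.2 to 98.9 ± 68.2 TPM (SD, n = 3 each), or 21.1% of the day 0 mean. By replicate, 15.1%, 10.5% and 37.8% of the day 0 mean were left. Without day 8 replicate 3 the log2 fold change was -2.96 (adjusted p = 1.37e-05). A two-sided exact permutation test of the 3 against 3 libraries gave p = 0.1, the smallest this number allows. On the days between, *Nanog* stood at 200 ± 15.1 TPM on day 4 (SD, n = 3) and 167 ± 30.6 TPM on day 6 (SD, n = 2). The gene spans positions 122707489 to 122714633 of chromosome 6 (mm10, plus strand). Of 7 tested genes in the list of *Nanog* and its neighbours, 4 were lower, *Nanog* included, and 0 higher. The others were *Mfap5*, a microfibril protein gene, at -1.18 (adjusted p = 0.0162), *Gdf3*, a TGF-beta ligand, at -3.09 (adjusted p = 0.000131), and the RNA-editing deaminase gene *Apobec1* at -2.47 (adjusted p = 0.000344). The glucose transporter gene *Slc2a3*, which lies close to *Nanog*, had 719, 669 and 545 TPM on day 0 and 894, 610 and 915 TPM on day 8, and the groups overlapped. *Dppa3*, a maternal-effect gene of the same cluster, also overlapped, with 40.2, 41.7 and 38.6 TPM on day 0 and 22.1, 15.3 and 48.1 TPM on day 8.

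Most genes of the pluripotency network were lower on day 8, in the core and in the naive list. In the core list 7 of 10 genes tested were lower and 1 was higher, with a median log2 fold change of -2.51. *Pou5f1* went from 1336, 1264 and 1500 TPM to 290, 198 and 501 TPM (log2 fold change -2.15, SE 0.29, adjusted p = 0.000891). *Sox2* went from 419, 417 and 380 TPM to 38.9, 38.9 and 130 TPM (-2.78, SE 0.41, adjusted p = 0.00137). As for *Nanog*, replicate 3 kept the largest share of the day 0 mean, 36.6% of *Pou5f1* and 32% of *Sox2*, against 14.5% to 21.2% and 9.58% to 9.59% in replicates 1 and 2. *Utf1*, a chromatin-associated factor of undifferentiated cells, had 20.3, 18.6 and 89.9 TPM on day 8 against 198 to 221 TPM on day 0. *Lin28a*, an RNA-binding protein that blocks let-7 maturation, was the gene of the list that rose, from 71.6, 69.3 and 58.9 TPM to 214, 144 and 170 TPM (1.37, adjusted p = 0.000446). *Sall4*, a zinc finger factor, did not pass, with 66.7 to 71.3 TPM on day 0 and 53.1 to 73.7 TPM on day 8.

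Of the 15 genes of the naive list, 13 were lower and 0 higher, with a median of -3.43. *Zfp42*, also called Rex1, fell from 614, 687 and 706 TPM to 23.8, 30.3 and 52.8 TPM (-4.27, SE 0.25, adjusted p = 4.7e-05). *Esrrb*, an orphan nuclear receptor, fell from 358, 323 and 284 TPM to 10.6, 12.5 and 19.1 TPM (-4.45, SE 0.20, adjusted p = 2.32e-05). Between 3.29% and 7.89% of the day 0 mean of these 2 genes was left in each library. *Klf4*, a Krüppel-like factor under LIF control, fell from 53.4 to 57 TPM to between 1.78 and 3.1 TPM (-3.99, adjusted p = 2.32e-05), and for this gene replicate 3 was the lowest. *Tfcp2l1*, another target of LIF signalling, fell by 4.02 on the log2 scale (adjusted p = 3.34e-05). The 2 members that did not pass were *Tbx3*, with 31.6, 35.2 and 6.17 TPM on day 8 against 28 to 34.5 TPM on day 0, and *Dppa3*. *Zfp42*, *Esrrb* and *Klf4* were thus at 7.89% or less of their day 0 mean in every library, unlike *Nanog*, *Pou5f1* and *Sox2*.

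The promoters of *Nanog* and *Zfp42*, which fell, and of *Cdx2*, which rose, are shown because all 3 hold the same short motif, and were chosen after this was seen. Of the 2 windows of *Nanog*, 1 is given. The windows run from 250 bases before to 50 bases after the start, written from 5′ to 3′ on the strand of the gene (RefSeq, GRCm38.p6), at chr6:122707239-122707538 for *Nanog* (plus strand), chr8:43306960-43307259 for *Zfp42* (minus strand) and chr5:147307200-147307499 for *Cdx2* (minus strand). Capitals mark ATGCAAA or its reverse complement TTTGCAT, part of the octamer that POU factors such as OCT4 are known to bind, and both strands were searched.
Nanog: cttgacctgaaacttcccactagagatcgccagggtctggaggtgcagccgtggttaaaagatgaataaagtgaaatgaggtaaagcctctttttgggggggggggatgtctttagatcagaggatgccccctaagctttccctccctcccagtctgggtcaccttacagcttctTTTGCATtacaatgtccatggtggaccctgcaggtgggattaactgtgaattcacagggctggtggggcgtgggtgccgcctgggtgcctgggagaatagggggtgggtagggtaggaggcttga
Zfp42: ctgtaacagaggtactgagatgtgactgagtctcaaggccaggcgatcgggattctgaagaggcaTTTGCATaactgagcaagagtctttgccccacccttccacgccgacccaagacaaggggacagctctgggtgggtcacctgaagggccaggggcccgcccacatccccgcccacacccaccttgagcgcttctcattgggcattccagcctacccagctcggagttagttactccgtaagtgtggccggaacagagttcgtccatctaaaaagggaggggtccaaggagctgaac
Cdx2: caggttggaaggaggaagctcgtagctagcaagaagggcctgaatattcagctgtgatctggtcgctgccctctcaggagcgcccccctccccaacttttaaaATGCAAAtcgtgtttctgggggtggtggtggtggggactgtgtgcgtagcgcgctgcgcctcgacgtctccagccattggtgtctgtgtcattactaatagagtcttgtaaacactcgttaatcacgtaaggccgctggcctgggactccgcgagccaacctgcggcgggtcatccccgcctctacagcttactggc
The motif stood in 1520 of all 32851 windows (4.63%). It was found in 5.26% of the 1540 windows of genes lower on day 8, 3.39% of the 1622 windows of genes higher and 3.44% of the 13898 windows of all genes tested, which matched 10853 of 15063 genes by symbol. These shares are a description and were not tested. Of the other genes looked up, *Igf2* held the motif in 1 of 4 windows and *Esrrb* in 0 of 2, and *Hand1* and *Hbb-bh1* had no entry.

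The largest falls included other genes of undifferentiated cells. *Tcl1*, a coactivator of AKT, fell by 4.77 on the log2 scale (adjusted p = 5.18e-05) and *Krt42*, a type I keratin, by as much (adjusted p = 2.32e-05). *Nr0b1*, an orphan nuclear receptor also called Dax1, went from 80.8, 79.7 and 115 TPM to 1.58, 1.99 and 5.59 TPM. Others were *Serpinb6c* (-4.62), *Lrrc2* (-4.61), *Gm28625* (-4.49), the noncoding *Halr1* next to the HoxA cluster (-4.47), *Esrrb* and the protease gene *Napsa* (-4.40). *Gm28625* is a noncoding RNA gene from 84890545 to 84890749 on chromosome 9, and was listed at 11.5, 0 and 0 TPM on day 8.

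The formative state was not a uniform group on day 8, and replicate 3 held more of it. Of 12 genes, 5 were higher and 1 lower, with a median of 0.98. *Fgf5*, the classical formative marker and an FGF ligand, had 0.734, 0.351 and 0.199 TPM on day 0 and 6.57, 7.13 and 50.8 TPM on day 8 (3.38, SE 0.67, adjusted p = 0.00497). Its day 6 level was higher, at 53 ± 7.38 TPM (SD, n = 2). *Otx2*, a homeobox factor that drives exit from the naive state, had 10.8, 9.93 and 45.7 TPM on day 8 against 12.5 to 18.3 TPM on day 0, and the groups overlapped. *Pou3f1*, or Oct6, followed the same order, with 7.46, 4.74 and 33 TPM on day 8. *Dnmt3b*, a de novo DNA methyltransferase, did not pass the size threshold, at 0.94 (adjusted p = 0.00593). *Foxd3* was the gene that fell (-2.02, adjusted p = 0.00113), and *Cdh2*, or N-cadherin, rose most, from 0.877, 0.934 and 1.66 TPM to 78.2, 81.3 and 25.7 TPM (4.71, adjusted p = 0.000139).

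Among 8 genes of DNA methylation and demethylation, 3 were lower and 1 was higher, and 2 were higher without day 8 replicate 2 or without replicate 3. *Dnmt3l*, the cofactor of the de novo enzymes, fell from 149 to 171 TPM to 11.2, 14.6 and 54.7 TPM (-2.85, adjusted p = 0.00261). *Tet1*, a dioxygenase that oxidises methylcytosine, fell from 94 to 138 TPM to between 13.5 and 16.4 TPM (-2.84, adjusted p = 4.15e-05), and *Tet3* rose by 1.55 (adjusted p = 0.00344). The maintenance genes *Dnmt1* and *Uhrf1* did not pass, at -0.27 and -0.56. In the germ cell list 5 of 10 genes were lower and 0 higher, among them *Stra8* (-3.04, adjusted p = 0.000183) and the synaptonemal complex gene *Sycp3* (-2.48, adjusted p = 0.000709). Of the 2-cell-like list only *Zscan4c* and *Zscan4f* were tested, and neither passed: *Zscan4f* was at 10.2, 0.659 and 1.5 TPM on day 0 and at 1.19, 0.308 and 0.456 TPM on day 8. The *Zscan4* genes are near-identical copies, among which reads may be split.

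**Figure D2:**
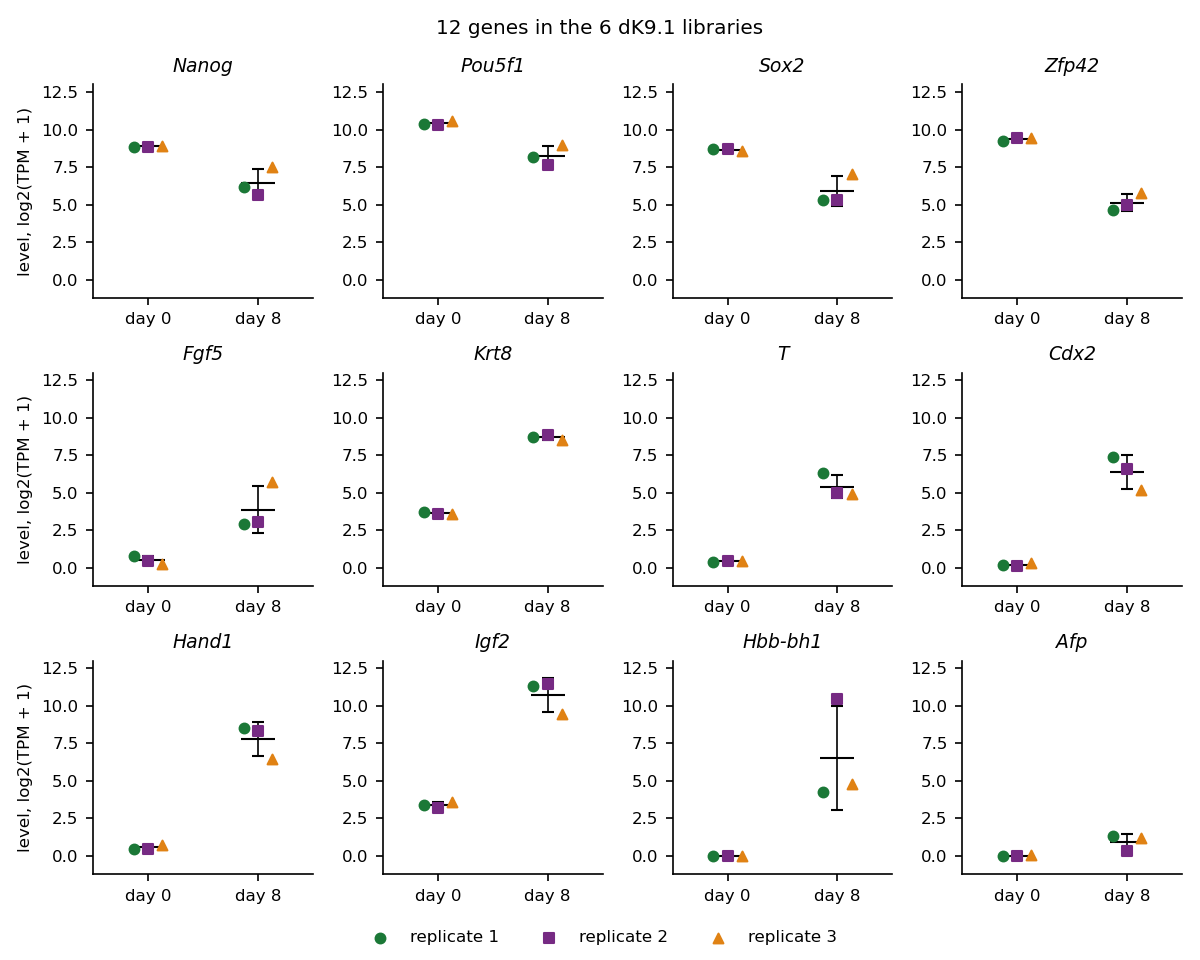
Level of 12 genes in log2(TPM + 1) (y axis) in the 3 day 0 and 3 day 8 libraries of dK9.1 (x axis). Symbols mark the replicate number, and horizontal bars and whiskers give the mean and SD (n = 3). The day 0 libraries nearly coincide, while on day 8 replicate 3 lies highest for *Nanog*, *Pou5f1*, *Sox2* and *Fgf5* and lowest for *Cdx2*, *Hand1* and *Igf2*, and replicate 2 lies highest for *Hbb-bh1*.

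The largest rises included those of imprinted genes and of mesodermal factors. *Igf2*, a growth factor expressed from the paternal allele, had 9.55, 8.39 and 11.3 TPM on day 0 and 2574, 2793 and 701 TPM on day 8 (7.33, SE 0.47, adjusted p = 5.18e-05). *H19*, the maternally expressed noncoding RNA of the same domain, had 10.1, 1.39 and 1.32 TPM and then 854, 1535 and 115 TPM (7.08, SE 0.96, adjusted p = 0.000894). All 14 imprinted genes of the list were higher, with a median of 2.66, and this count of 14 was the same without any one of the day 8 libraries. Their summed level rose from between 401 and 486 TPM to 7843, 9364 and 2578 TPM. *Peg10*, a gene derived from a retrotransposon, reached 1188, 1262 and 421 TPM from 26.9 to 36.2 TPM, and *Mest*, a hydrolase-like protein gene, reached 818, 1136 and 256 TPM from 42 to 47.1 TPM. *Meg3*, a noncoding RNA of the Dlk1 domain, was at 139, 92.7 and 72.1 TPM on day 0 already and rose by 2.18 (adjusted p = 0.00149). *Dlk1* itself, a transmembrane Notch-ligand relative, rose by 5.09 (adjusted p = 0.000131). The cell cycle inhibitor gene *Cdkn1c* rose by 2.74 (adjusted p = 0.00143). For all of these, day 8 replicate 3 was the lowest of the 3 and still above every day 0 library. TPM do not tell the alleles apart.

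*Hand1*, a bHLH factor of lateral and extra-embryonic mesoderm and of trophoblast, went from 0.395, 0.395 and 0.673 TPM to 370, 315 and 87.3 TPM (7.20, SE 0.48, adjusted p = 5.94e-05). It was still at 0.683 ± 0.933 TPM on day 4 (SD, n = 3) and at 22.9 ± 25.5 TPM on day 6 (SD, n = 2). Its relative *Hand2* was listed at 0 in all day 0 libraries and at 78.8, 133 and 16.4 TPM on day 8 (adjusted p = 0.00036). *Msx1*, a homeobox target of BMP signals, reached 155, 128 and 40.7 TPM (6.24, adjusted p = 7.32e-05), and *Capn6*, a calpain without protease activity, 130, 171 and 27.4 TPM (6.20, adjusted p = 0.000192). *Acta2*, or smooth muscle actin, followed another order, with 28.5, 142 and 66.8 TPM (5.92, adjusted p = 0.000107). *Pmp22*, a myelin and epithelial membrane protein, rose by 5.87 (adjusted p = 5.06e-05). In the list of lateral and paraxial mesoderm 12 of 14 genes were higher and 1 was lower, with a median of 3.18 and summed levels of 804, 869 and 236 TPM on day 8 against 113 to 132 TPM on day 0. *Foxf1*, a forkhead factor of lateral mesoderm, was listed at 0 on day 0 and at 42.9, 36.5 and 5.46 TPM on day 8. *Kdr*, the VEGF receptor that marks early mesoderm, reached 44.5, 52.2 and 7.53 TPM (4.46, adjusted p = 0.00102) and *Twist1*, a mesodermal bHLH factor, 82.5, 105 and 24.4 TPM (3.10, adjusted p = 0.00143). The member that fell was *Tcf15* (-2.88, adjusted p = 0.000151), a paraxial mesoderm factor that undifferentiated cells also express, at 81.4 to 104 TPM on day 0.

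Genes of the primitive streak were still on in day 8 cells. Of 12 genes, 10 were higher and 0 lower, with a median of 2.96. *T*, or Brachyury, rose from 0.285, 0.362 and 0.375 TPM to 78.1, 30.3 and 29.7 TPM (4.98, SE 0.36, adjusted p = 7.11e-05), after 161 ± 179 TPM on day 6 (SD, n = 2). *Fgf8* rose from 0.791 to 1.18 TPM to 112, 46.5 and 120 TPM (5.43, adjusted p = 5.06e-05). *Mixl1*, a streak homeobox gene, rose by 3.06 (adjusted p = 0.00351), *Mesp1*, which marks nascent mesoderm, by 3.40 (adjusted p = 0.00126), and *Eomes*, a T-box factor of streak and trophoblast, by 2.22 (adjusted p = 0.00031). *Mesp2* did not pass, at 0.10 (adjusted p = 0.791), nor did *Tbx6*, at 0.80. Replicate 1 was highest for *T*, *Mixl1* and *Mesp1*, and the summed level of the list was 357, 172 and 210 TPM on day 8 against 9.62 to 10.6 TPM on day 0.

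The Hox and Cdx genes, which set position along the body axis, rose nearly as a whole. Of 25 tested, 23 were higher and 0 lower, against 11.4% of all genes, with a median of 2.90, and 4 of them were listed at 0 in every day 0 library. *Cdx2*, a regulator of posterior Hox genes and of trophoblast, went from 0.121, 0.0989 and 0.254 TPM to 166, 93.8 and 35.1 TPM (6.16, SE 0.48, adjusted p = 8.67e-05). *Hoxd9* went from 0.0987, 0.033 and 0.188 TPM to 54.9, 45.9 and 15.6 TPM (4.99, adjusted p = 0.000116). *Hoxa9* reached 39.3, 38.7 and 5.13 TPM (4.40, adjusted p = 0.00141) and the anterior gene *Hoxb1* 18.5, 7.65 and 7.95 TPM (3.50, adjusted p = 0.000164). *Hoxa5* rose by 2.04 (adjusted p = 0.000517). The 2 that did not pass were *Cdx1*, at 2.19 to 2.47 TPM on day 0 and 3.59, 2.16 and 0.934 TPM on day 8, and *Cdx4*, at 5.48, 1.58 and 0.278 TPM on day 8 (1.35, adjusted p = 0.0652). The summed level of the list was 588, 438 and 138 TPM on day 8 and 7.91 to 8.77 TPM on day 0, so that replicate 3 was low for this group too. Of genes of retinoic acid metabolism and binding, 6 of 8 were higher and 0 lower, including *Cyp26a1*, which degrades retinoic acid, with 112, 52.2 and 49.9 TPM (5.43, adjusted p = 3.79e-05) and *Crabp2*, an intracellular carrier, with 127, 143 and 86.5 TPM (4.24, adjusted p = 3.28e-05). *Stra6*, the retinol uptake receptor, did not pass, at 0.81 (adjusted p = 0.0275).

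Signalling genes separated by pathway. In the Nodal list, ligands and feedback genes fell: 5 of 7 were lower and 1 was higher, and 4 and 2 of 8 without day 8 replicate 1. *Tdgf1*, or Cripto, the Nodal co-receptor, fell from 508, 395 and 348 TPM to 45.4, 25.4 and 46.3 TPM (-3.42, adjusted p = 6.83e-05). The ligand *Nodal* itself fell by 1.25 (adjusted p = 0.00403), or 0.99 without day 8 replicate 1, which is under the size threshold, and its inhibitors *Lefty1* by 2.38 (adjusted p = 0.000505) and *Lefty2* by 1.95 (adjusted p = 0.000108). In the BMP list 9 of 11 genes were higher and 0 lower. The ligand *Bmp4* rose from 15.6 to 19.9 TPM to 85, 105 and 35.3 TPM (1.84, adjusted p = 0.00454), and the targets *Id1* (3.00, adjusted p = 2.32e-05), *Id2* (2.71, adjusted p = 0.000103) and *Id3* (3.81, adjusted p = 5.18e-05), which block bHLH factors, rose with it. *Id1* had 319, 299 and 275 TPM on day 8. In the WNT list 8 of 10 were higher and 1 was lower: the ligands *Wnt5a* (4.39, adjusted p = 0.00062) and *Wnt3* (3.44, adjusted p = 9.43e-05) and the target *Axin2* (2.08, adjusted p = 0.00558) rose, and *Notum*, a secreted WNT deacylase, fell by 1.15 (adjusted p = 0.00813). Without day 8 replicate 3 *Notum* was at -0.96 (adjusted p = 0.0108) and no WNT gene was lower. The FGF-ERK list divided, with 5 of 11 higher and 3 lower. The ligand *Fgf4* fell from 96.4 to 101 TPM to 3.89, 5.25 and 10.8 TPM (-3.82, adjusted p = 8.2e-05) and the feedback gene *Spry4* by 1.62 (adjusted p = 0.000786), while the ERK phosphatase gene *Dusp6* rose from 16.5 to 21.8 TPM to 62.3, 54.6 and 65.9 TPM (1.63, adjusted p = 0.000133).

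**Figure D3:**
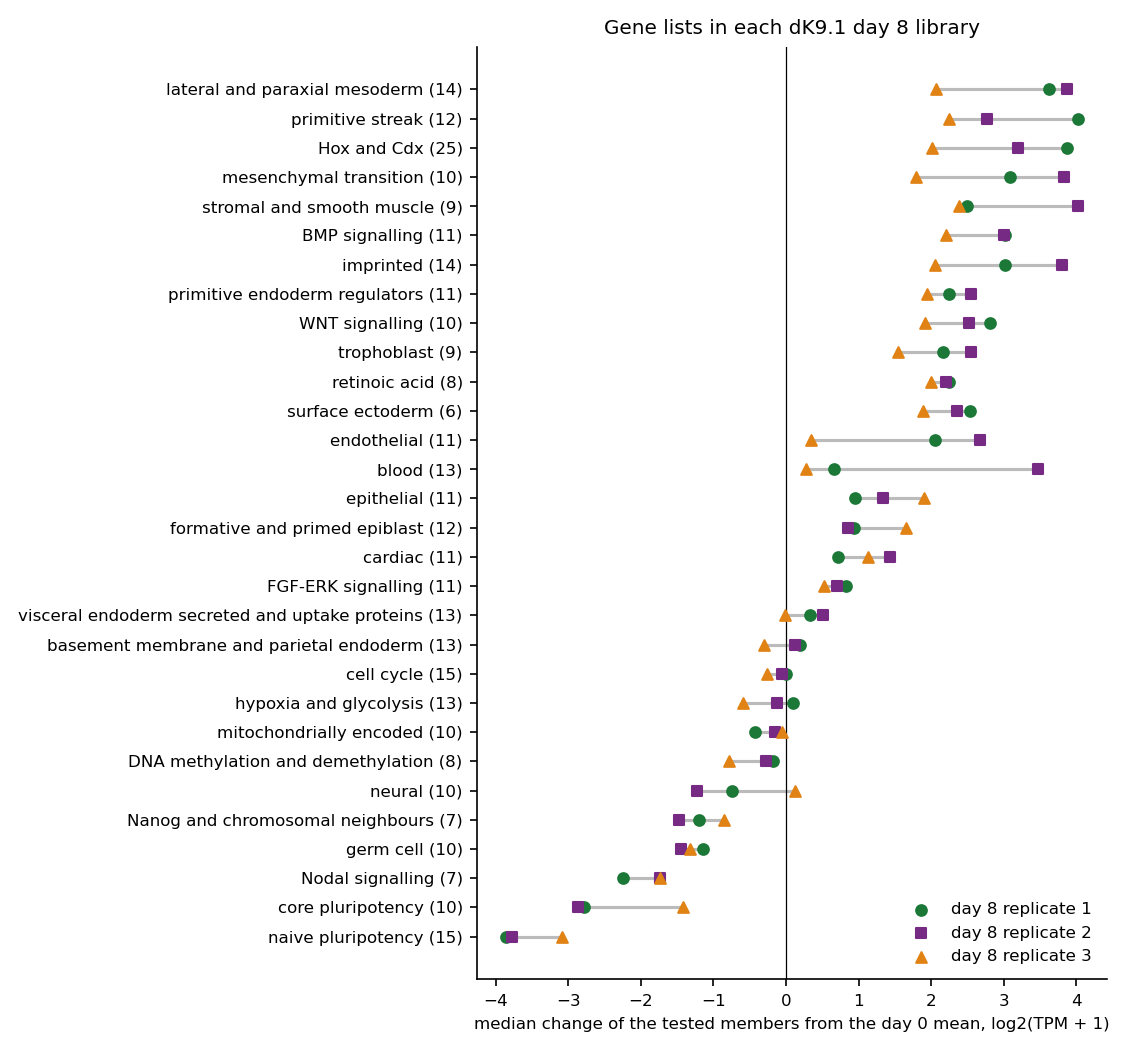
Median change of the tested members of each gene list (number in brackets) from the mean of the 3 day 0 libraries, in log2(TPM + 1) (x axis), for each day 8 library of dK9.1. Lists with fewer than 5 tested members are left out, grey lines join the lowest and highest library, and in the mesoderm, Hox and imprinted lists replicate 3 lies lowest, while in the core and naive pluripotency lists it lies nearest to 0.

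The endoderm lists moved apart from each other. Of 11 primitive endoderm regulators tested, 8 were higher and 0 lower, with a median of 2.22. *Gata6* had 1.16, 0.417 and 0.221 TPM on day 0 and 19, 38.1 and 6.44 TPM on day 8 (3.53, SE 0.55, adjusted p = 0.00161). *Gata4* rose by 3.21 (adjusted p = 0.000689) and *Sox17* by 3.18 (adjusted p = 0.0029), with replicate 2 highest and replicate 3 lowest for both. *Pdgfra*, a receptor of primitive endoderm and of mesoderm, rose by 4.10 (adjusted p = 0.000129). Several of these genes are also known in mesoderm or definitive endoderm, and *Gata4*, *Pdgfra*, *Eomes* and *Lhx1* stand in other lists as well. *Foxa2* passed at 1.31 (adjusted p = 0.0364) with 1.02, 5.78 and 1.88 TPM on day 8, and without day 8 replicate 2 it did not (0.82, adjusted p = 0.0544). *Hnf4a*, a nuclear receptor that drives visceral endoderm genes, did not pass and had 0.0644, 2.49 and 0.245 TPM on day 8. Without day 8 replicate 2 the list had 6 higher and 1 lower of 10 genes tested: *Hnf4a* was then lower (-1.42, adjusted p = 0.0252), and *Sox7*, a SOX factor of endoderm and endothelium, did not pass (1.34, adjusted p = 0.0731). Without replicate 1 it had 7 higher and 0 lower of 12, and *Sox7* again did not pass (1.48, adjusted p = 0.0845).

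Of 13 secreted or uptake proteins of the visceral endoderm tested, 3 were higher and 3 lower, and 5 more listed genes had a mean under 1 TPM on both days and were not tested. Most of the summed level was *Apoe*, an apolipoprotein gene that undifferentiated cells also express, with 860, 756 and 824 TPM on day 0 and 319, 556 and 751 TPM on day 8 (-0.67, adjusted p = 0.0792). *Afp*, or alpha-fetoprotein, had 1.49, 0.275 and 1.33 TPM on day 8 and did not pass the size threshold (0.95, adjusted p = 0.0288). *Ttr*, or transthyretin, had 1.12, 20.9 and 0.4 TPM (1.97, adjusted p = 0.108), a value made by replicate 2 alone. *Apoa1* and *Apob*, apolipoproteins of secreted lipid particles, had at most 1.29 and 0.99 TPM in any of the 6 libraries. *Rbp4*, the retinol carrier, had 4.75 to 7.18 TPM on day 0 and 7.23, 16.7 and 5.43 TPM on day 8. *Trf*, or transferrin, fell from 14.9, 13.8 and 11.1 TPM to 0.279, 1.16 and 0.556 TPM (-3.13, adjusted p = 8.85e-05), and *Amn* and *Vil1*, of the apical surface, fell by 1.31 and 1.16 (adjusted p = 0.00261 and 0.00887). The members that rose were *Dab2*, an endocytic adaptor (2.04, adjusted p = 0.00256), *Lrp2*, an endocytic receptor (1.37, adjusted p = 0.0339), and *Spink1*, a protease inhibitor. *Spink1* had 4.95, 93.3 and 7.46 TPM on day 8 (2.71, adjusted p = 0.0499), and without replicate 2 its change was 1.46 (adjusted p = 0.0413). *Lrp2* was highest in replicate 3 and did not pass without it (0.84, adjusted p = 0.0211) or without replicate 1 (1.47, adjusted p = 0.0659). Among 13 basement membrane genes, 5 were higher and 2 lower: *Serpinh1*, a collagen chaperone, rose by 2.78 (adjusted p = 8.2e-05) and *Col4a1* by 1.78 (adjusted p = 0.0206), the latter not without replicate 1 (adjusted p = 0.0711) or replicate 2 (adjusted p = 0.0585), and *Lama1*, a laminin of the earliest embryonic basement membranes, fell by 1.60 (adjusted p = 0.000454). Without day 8 replicate 2 the basement membrane counts were 2 higher and 3 lower. In the trophoblast list 6 of 9 were higher and 2 lower, with 1 lower without day 8 replicate 1, and of the 6, *Cdx2*, *Hand1* and *Eomes* are also mesodermal. *Plac1*, a placental gene, rose from at most 0.166 TPM to 15.4, 25.8 and 1.99 TPM (3.32, adjusted p = 0.00652).

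Blood genes set replicate 2 apart from the other day 8 libraries. *Hbb-bh1*, an embryonic beta-like globin, was listed at 0 in all day 0 libraries and at 18.5, 1440 and 26.7 TPM on day 8 (adjusted p = 0.0073). The embryonic alpha-like globin *Hba-x* followed it, from 0 on day 0 to 3.73, 319 and 3.37 TPM (adjusted p = 0.0457), and *Hba-a1* had 3.36, 129 and 3.01 TPM (adjusted p = 0.0487). *Hba-a2*, nearly identical to *Hba-a1* so that reads may be split between them, had 2.63, 123 and 3.55 TPM and did not pass (adjusted p = 0.0833). Replicate 2 alone was high in every one of these. The erythroid regulators *Gata1* (0.795, 10.3 and 0.778 TPM), *Klf1* (0.279, 7.75 and 0.445 TPM) and *Gfi1b* (0.548, 12.8 and 0.511 TPM) were likewise highest in replicate 2 on day 8 and did not pass. In all, 5 of 13 blood genes were higher and 0 lower. The summed level of the list was 82.2, 1932 and 44.8 TPM on day 8 against 5.7 to 10.2 TPM on day 0. *Tal1* and *Lmo2*, which act earlier in blood and endothelial progenitors, were not confined to replicate 2: *Lmo2* had 34.6, 43.9 and 4.56 TPM (3.59, adjusted p = 0.0047) and *Tal1* 15.4, 19.4 and 3.11 TPM (2.59, adjusted p = 0.00614). Without replicate 2, *Hbb-bh1* still passed (adjusted p = 0.000158).

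Of 11 endothelial genes, 6 were higher and 1 lower. *Cdh5*, or VE-cadherin, had 7.43, 21.3 and 1.15 TPM on day 8 from at most 0.0441 TPM (2.84, adjusted p = 0.0139). *Etv2*, an ETS factor at the start of this lineage, had 22.4, 17.4 and 5.19 TPM (2.16, adjusted p = 0.00596). *Pecam1*, an adhesion gene that undifferentiated cells also express, fell from 43.2 to 54.9 TPM to 10.4, 22.7 and 9.69 TPM (-1.85, adjusted p = 0.0018). Without day 8 replicate 3, 8 endothelial and 7 blood genes were higher, without replicate 2 these counts were 5 and 4, and without replicate 1 both were 4. Of 11 cardiac genes tested 5 were higher and 1 was lower, and the summed level went from between 25.5 and 33.6 TPM to 71, 140 and 55.3 TPM. The contractile genes *Tnnt2*, a troponin (1.22, 5.39 and 1.83 TPM on day 8), and *Myl7*, an atrial myosin light chain (2.24, 5.11 and 3.1 TPM), were at 0.24 (adjusted p = 0.644) and -1.35 (adjusted p = 0.00351), and the cardiac homeobox gene *Nkx2-5* was at 0.43 (adjusted p = 0.319). *Actc1*, a cardiac and embryonic muscle actin, was listed at 0 on day 0 and at 6.63, 11.3 and 8.56 TPM on day 8 (adjusted p = 6.7e-05). Of 9 stromal and smooth muscle genes 7 were higher and 1, the surface glycoprotein gene *Thy1*, was lower (-1.49, adjusted p = 0.00916), with *Col1a1* at 35.4, 52.8 and 13.8 TPM (4.52, adjusted p = 0.000183) and *Tagln*, an actin-binding protein, at 71.5, 119 and 256 TPM (4.85, adjusted p = 0.000103). For *Tagln* replicate 3 was the highest, unlike for most mesodermal genes.

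Epithelial and mesenchymal genes rose side by side. Of 11 epithelial genes 7 were higher and 1 was lower, and of 10 genes of the mesenchymal transition 8 were higher and 0 lower. The keratins *Krt8* and *Krt18* rose evenly: *Krt8* went from 11.9, 11.2 and 11.1 TPM to 422, 469 and 363 TPM (5.07, SE 0.12, adjusted p = 1.82e-06) and *Krt18* from 15.4, 15.2 and 10.6 TPM to 284, 334 and 280 TPM (4.36, adjusted p = 1.69e-05). *Cdh1*, or E-cadherin, fell from 151, 155 and 125 TPM to 30.3, 45.3 and 88.8 TPM (-1.51, adjusted p = 0.00794). *Epcam*, an adhesion molecule, overlapped, with 50, 50.8 and 99.5 TPM on day 8 against 55.4 to 75.9 TPM on day 0. *Vim*, or vimentin, rose from 38 to 45.5 TPM to 379, 587 and 219 TPM (3.08, adjusted p = 0.000233), and *Snai2* (2.99, adjusted p = 0.00289) and *Zeb2* (2.45, adjusted p = 0.000221), repressors of *Cdh1*, rose as well. Replicate 3 thus had the highest *Cdh1* and *Epcam* and the lowest *Vim*. In the surface ectoderm list 5 of 6 tested genes were higher, led by both keratins, which are not specific to it. In the neural list 4 of 10 were higher and 5 lower: *Nes*, an intermediate filament (2.39, adjusted p = 6.6e-05), and *Sox11* (2.87, adjusted p = 7.9e-05) rose, and *Tubb3*, a neuronal tubulin (-2.38, adjusted p = 0.000291), and *Pax6* (-1.38, adjusted p = 0.00489), an eye and forebrain regulator, fell. *Sox1*, the early neural plate marker, had 2.2, 0.385 and 6.13 TPM on day 8 against 2.2 to 2.36 TPM on day 0 and overlapped.

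Few genes of general cell functions passed, at shares near those of all genes (11.4% higher and 10.7% lower). Of 15 cell cycle genes 1 was higher and 1 lower, with a median of -0.11: *Ccnd2* rose by 1.49 (adjusted p = 0.00679), and *Ccne1*, cyclin E, fell by 1.42 (adjusted p = 0.000152). *Mki67*, a marker of cycling cells, had 40.7 to 50.6 TPM on day 0 and 42.2 to 62.2 TPM on day 8. Of 13 genes of hypoxia and glycolysis 1 was higher and 2 were lower, the latter being the glycolytic enzyme genes *Hk2* (-1.29, adjusted p = 0.00049) and *Pfkp* (-2.14, adjusted p = 0.000535). *Ldha*, lactate dehydrogenase, had 1506 to 1636 TPM on day 0 and 2956, 1976 and 1416 TPM on day 8. None of the 10 mitochondrially encoded genes passed. Their summed level was 23800 to 27550 TPM on day 0 and 18299, 23803 and 25531 TPM on day 8.

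The spread between replicates grew with differentiation. The median SD per gene of log2(TPM + 1) was 0.14 on day 0 and 0.25 on day 8, and 71.9% of genes had a larger SD on day 8. Among the 6 groups of days 0 and 8 the day 8 group of dK9.1 had the highest median, against 0.22 in E14Tg2a and 0.21 in dK9.2 on day 8. An SD above 1 was found for 2.68% of genes on day 8 and 0.929% on day 0. Replicates 1 and 2 of day 8 differed from each other by a root mean square of 0.48 over all genes tested, and replicate 3 differed from them by 0.61 and 0.68, compared with 0.38 to 0.43 between day 0 libraries. Without replicate 3 the median SD of day 8 was 0.14, taken from replicates 1 and 2 only and so not directly comparable with that of 3 libraries. Among genes with a day 8 mean of at least 5 TPM, the 10 with the largest SD included the globins *Hba-x* (SD 3.54), *Hbb-bh1* (3.45), *Hba-a1* (2.86) and *Hba-a2* (2.85). The other 6 were short predicted or pseudogene transcripts, *Gm27286*, *Gm45612*, *Gm50083*, *Gm6565*, *Pgk1-rs7* and *Gm27913*, each listed at 0 or under 1 TPM in at least 1 day 8 library.

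**Figure D4:**
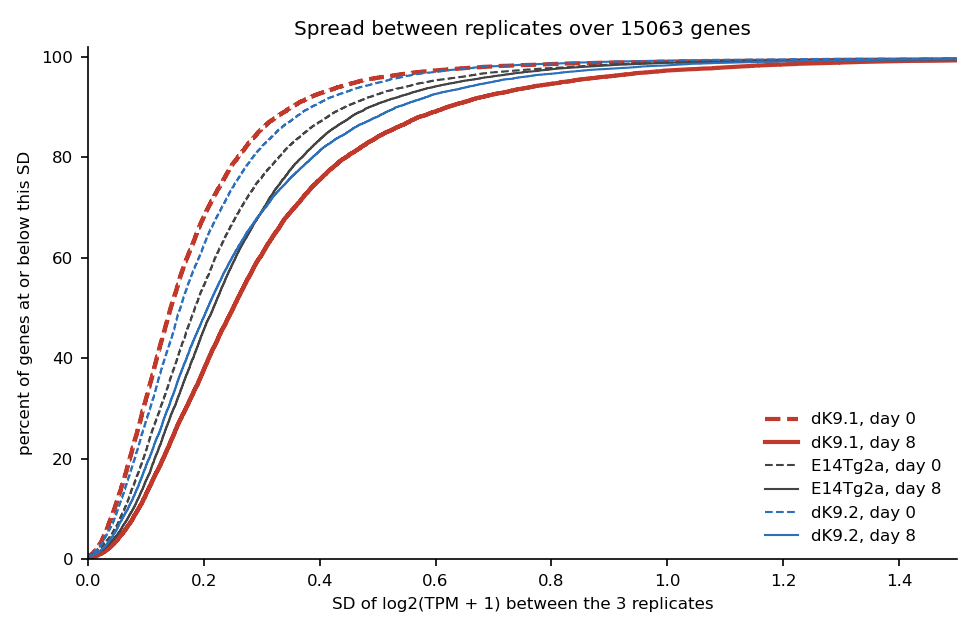
Cumulative share of 15063 genes (y axis, percent) by the SD of log2(TPM + 1) between the 3 replicates of a group (x axis), for 3 lines on day 0 (dashed) and day 8 (solid). The solid red curve of dK9.1 on day 8 lies furthest to the right over most of the range, with a median SD of 0.25, and its dashed day 0 curve lies furthest to the left, with a median of 0.14.

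The day 8 libraries also differed in how far they lay along the change itself. Each day 8 library was placed on the line from the day 0 mean (0%) to the mean of the other day 8 libraries (100%), over all genes tested. Replicates 1 and 2 stood at 103% and 108%, and replicate 3 at 70.7%. Among the genes higher on day 8, replicate 3 was the lowest library for 68.8% and replicate 2 the highest for 59.3%. Among those lower, replicate 3 was the highest for 62.9%. The median change of the higher genes was 1.66, 1.85 and 1.34 in replicates 1, 2 and 3, and that of the lower genes -1.66, -1.61 and -1.34. These values describe the libraries and were not tested, as the genes were called with the same libraries. The lists showed where this order held and where it did not. The naive genes had fallen in replicate 3 by a median of 3.09 on the log2 scale, against 3.86 and 3.78 in replicates 1 and 2, while the core genes had fallen by 1.42 against 2.79 and 2.87. The Hox and Cdx genes had risen by a median of 3.88, 3.20 and 2.01, and the mesodermal genes by 3.63, 3.88 and 2.07. The retinoic acid list differed little, at 2.25, 2.20 and 2.00, and the epithelial list ran the other way, at 0.95, 1.34 and 1.90. Whether replicate 3 holds fewer differentiated cells or less advanced ones was not tested.

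dK9.1 was set beside the parental line on the same days to see where its change differed. In E14Tg2a, 2584 of 15180 genes tested were higher on day 8 (17%) and 1796 were lower (11.8%). Of the genes higher in dK9.1, 86.4% were also higher in E14Tg2a, and these 1489 genes made up 57.6% of those of E14Tg2a. For the lower genes the shares were 73.1% and 65.8%. No gene higher in dK9.1 was lower in E14Tg2a, and 2 went the other way. On the line from the day 0 to the day 8 mean of E14Tg2a, the dK9.1 day 8 libraries stood at 81.9%, 91.4% and 66.1% and those of dK9.2 at 70.9%, 83% and 77.1%. The E14Tg2a libraries, each placed with itself left out of the day 8 mean, stood at 89.8%, 104% and 94.5%, so the ranges of dK9.1 and E14Tg2a overlapped. Taken by replicate number, both clones stood lower than E14Tg2a in all 3 pairs, which was not tested. *Nanog* had 326, 338 and 368 TPM on day 0 and 34.6, 23.7 and 22 TPM on day 8 in E14Tg2a. Its fall was 1.22 smaller in dK9.1 on the log2 scale (SE 0.46, adjusted p = 0.166, and 0.0579 with the replicate number within each day as a block), which did not pass.

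The difference of the change was tested gene by gene as an interaction. Of 15988 genes, the change was more positive in dK9.1 for 40 (0.25%) and more negative for 144 (0.901%). A gene entered when its mean in any line reached 1 TPM on day 0 or day 8. These counts thus include genes that did so outside dK9.1 only. Libraries of the same number and day from different lines deviated together, and with that number within each day as a block the counts were 224 (1.4%) and 541 (3.38%), and with the number as a block across days 128 (0.801%) and 305 (1.91%). Without a block, leaving out 1 library gave 16 genes (without dK9.1 day 0 replicate 2) to 98 (without dK9.1 day 8 replicate 2) and 41 (without E14Tg2a day 0 replicate 3) to 372 (without dK9.1 day 8 replicate 2). Of the 13 visceral endoderm proteins tested within dK9.1, 5 were more negative in dK9.1 and 0 more positive, and 10 were more negative with the block within each day. The 5 others, *Apoa1* among them, had a mean under 1 TPM in dK9.1 on both days and reached the minimum through another line only, so they were not counted. *Afp* had 129, 20.4 and 49.2 TPM in E14Tg2a on day 8 (difference -4.75, SE 0.87, adjusted p = 0.0156). *Ttr* had 114, 104 and 64.5 TPM there (-4.31, adjusted p = 0.0337), *Rbp4* 123, 195 and 143 TPM (-4.39, adjusted p = 4.43e-05) and *Apoc2* 29.8, 40.7 and 17.9 TPM (-5.16, adjusted p = 8.39e-06). *Apoa1* had 37.3, 17.6 and 19.5 TPM there (-3.68), and its p is not given, as it reached the minimum through another line only. Among their regulators *Hnf4a* differed (-2.49, adjusted p = 0.0463), while *Gata6* (-0.10, adjusted p = 0.973), *Gata4* (-0.69, adjusted p = 0.727) and *Sox17* (-0.21, adjusted p = 0.943) did not pass. Cardiac genes were more negative for 3 of the 11 members tested within dK9.1, *Tnnt2* (-3.40, adjusted p = 0.0188), *Myl7* (-2.49, adjusted p = 0.00556) and *Nkx2-5* (-1.54, adjusted p = 0.0463).

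Blood genes passed only with the block within each day, where 7 of 13 were more negative in dK9.1. *Hbb-bh1* was at 809, 3735 and 866 TPM in E14Tg2a on day 8, and its difference had an adjusted p of 0.307 without and 0.0398 with the block. Core and naive pluripotency genes had 1 of 10 and 0 of 15 members past the thresholds, all more positive, and 4 of 10 and 4 of 15 with the block. *Pou5f1* then passed (1.68, adjusted p = 0.0233), but neither without the block (0.112) nor with the block across days (0.0625), and *Zfp42* too (1.66, adjusted p = 0.00923, and 0.0543 without it or 0.0243 with the block across days). In the FGF-ERK list 4 genes were more positive in dK9.1: *Dusp6* (1.90, adjusted p = 0.0122), which had 26.9 ± 10.3 TPM in E14Tg2a on day 8 (SD, n = 3), *Spry2* (1.35, adjusted p = 0.0177), *Etv4* (1.62, adjusted p = 0.0464) and *Etv5* (1.10, adjusted p = 0.0427). With either block 5 were more positive and 1 more negative, the receptor gene *Fgfr2* (-1.81, adjusted p = 0.0216 with the block within each day, 0.0398 with that across days and 0.0543 without). *Hoxb1* (1.63, adjusted p = 0.0481) and *Hoxa5* (1.09, adjusted p = 0.0422) were the only Hox genes to differ without the block. Among the genes that passed without a block, the largest positive differences were those of *Gm12112* (6.88), *Gm26448* (4.77), *Trav5-2* (3.59), *Gbx2* (3.30) and *Tdh* (2.30). *Gm26448*, a small nucleolar RNA gene, was listed at 0 in all 6 dK9.1 libraries, so its difference comes from the fall in E14Tg2a. *Gbx2*, a homeobox gene under LIF control, had 10.2 to 12 TPM on day 0 in dK9.1 against 38.5 to 43.6 TPM in E14Tg2a. *Tdh*, threonine dehydrogenase, fell in both lines, to 11.6, 16.3 and 24.4 TPM in dK9.1 and to between 4.14 and 5.93 TPM in E14Tg2a. *Tdh* and *Trav5-2* lie on chromosome 14 between 50 and 80 Mb, where 153 genes of at least 5 TPM had a median level 0.62 lower in dK9.1 than in E14Tg2a on day 0 and 0.69 lower on day 8 (log2 scale). The part of this offset in both differences was not tested.

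Against dK9.2, the other clone, 0 genes passed in either direction with limma, and 1044 had an unadjusted p under 0.05 (6.53%). With the replicate number within each day as a block, 46 were more positive in dK9.1 (0.288%) and 8 more negative (0.05%). The listed genes among them were the noncoding imprinted genes *Rian* (1.07, adjusted p = 0.035) and *Mirg* (1.08, adjusted p = 0.0386) and the zinc finger genes *Zscan4c* (1.48, adjusted p = 0.0262) and *Zscan4f* (1.75, adjusted p = 0.0458) of early cleavage embryos. In dK9.1 *Zscan4c* and *Zscan4f* had at most 0.558 and 1.19 TPM on day 8, and none of these 4 genes passed with the block across days. In dK9.2, 11.8% of 15056 genes tested were higher on day 8 and 12.1% were lower. Of the genes higher in dK9.1, 80.9% were also higher in dK9.2, and of those lower in dK9.1, 79.2% were also lower there. The genes called in dK9.2, a choice that used no dK9.1 or E14Tg2a library, allowed both lines to be read on the same genes. The 1770 genes higher in dK9.2 had a median change of 1.53 in dK9.1 and 1.80 in E14Tg2a, and 70.3% of them changed less in dK9.1. For the 1824 lower genes the medians were -1.35 and -1.45, and 60.9% changed less in dK9.1. These shares were not taken over all genes tested, nor with median-ratio rescaling.

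**Figure D5:**
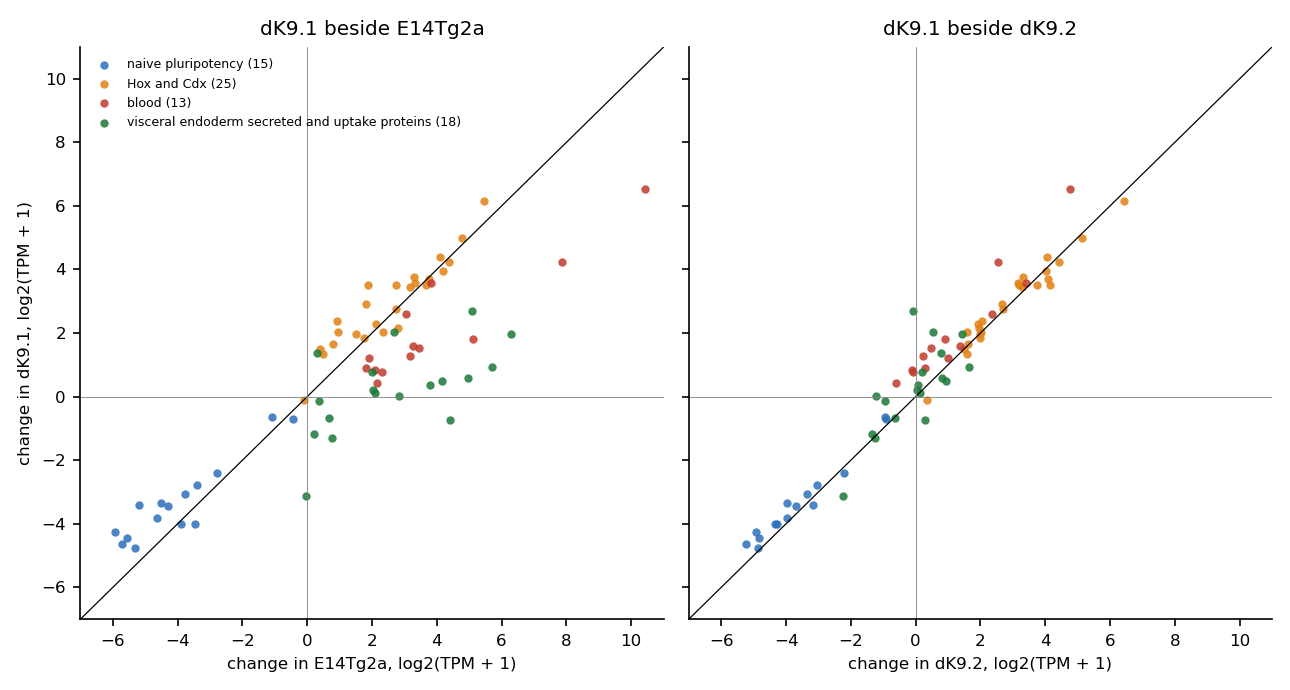
Change from day 0 to day 8 in dK9.1 (y axis) against the change in E14Tg2a (left, x axis) and in dK9.2 (right, x axis), in log2(TPM + 1), for the members of 4 gene lists in the table. Points on the diagonal changed equally; the visceral endoderm proteins (green) other than *Lrp2* lie below it beside E14Tg2a, with *Apoc2* at -0.74 in dK9.1 and 4.42 in E14Tg2a, and on both sides of it beside dK9.2.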

How the data were processed

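RNA of 33 libraries was sequenced, of which 6 are of dK9.1 on days 0 and 8. Per the authors, RNA was poly-A selected and the stranded libraries read from both ends, and STAR was the aligner (mm10) and RSEM the quantifier. The deposited TPM were computed by the authors within each library. Versions and annotation are not given in the sources used here. The authors left out PCA outliers before computing TPM, and what these were is not given in the sources used here. The table also holds 22 columns of the authors' own comparisons (log2 fold changes and FDR), which were not used.

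The study gives only an approximate depth common to all libraries, TPM do not keep that of each library, and the precision was taken from the replicates. Listed TPM summed to between 995414 and 997685 in the 6 libraries. The tests used limma 3.58.1 under R 4.3.3, with a trended empirical Bayes prior, on log2(TPM + 1) of genes reaching a mean of 1 TPM in a compared group, with Benjamini-Hochberg adjustment and the study's thresholds (adjusted p under 0.05, absolute log2 fold change above 1). The change in dK9.1 was fitted on its 6 libraries and the interactions on the 18 libraries of 3 lines. *Nanog* was also compared by a two-sided exact permutation test (scipy 1.17.1). P-values measure the spread between these libraries. The fits were tested on simulated data with independent normal noise and 1 SD per gene for all groups. Such data hold neither the larger day 8 spread of dK9.1 nor the shared deviations of same-numbered libraries. Figures were drawn with matplotlib 3.10.9 in Python 3.11.15.

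The comparison, the 31 gene lists and the rule for named genes were chosen with earlier results of these data known. Lists were written by hand (351 genes, 329 in the table, 29 of them in more than 1 list) and are described by counts and medians. The rule names *Nanog*, the 10 largest changes in each direction without overlap, the first 4 genes of each list in the table, the 10 largest SDs on day 8 at 5 TPM or more, the 5 largest differences in each direction from each line and the 5 most abundant genes of each group. Other genes named are members of the lists, chosen after their values were seen. Some genes that the rule or the lists hold are not reported here. The bounds of the chromosome 14 segment came from an earlier analysis.

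Same-numbered libraries were checked for pairing. Between lines on the same day the deviations from the group means correlated at 0.12 to 0.42 in all 18 same-numbered pairs, and the study describes lines run in parallel, so a block by number within each day was added after the data were seen. Positions are from GENCODE M21 (mm10) and promoters from RefSeq (GRCm38.p6). The alternatives were 0.1 as pseudocount, 5 TPM or nothing as the minimum, median-ratio rescaling, replicate blocks, no trend, library weights, other sets of libraries and each library left out.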

Additional observations from a re-analysis of the deposited data

Results flagged for a closer look

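The results here were picked out because dK9.1 and E14Tg2a differed in their day 8 against day 0 change by the test of the difference itself (limma interaction, adjusted p under 0.05 and an absolute log2 difference above 1). In all, 40 genes were more positive and 144 more negative in dK9.1.

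Among the genes that the naming rule holds, the change was more negative in dK9.1 for the visceral endoderm products *Apoc2* (-5.16), *Afp* (-4.75), *Rbp4* (-4.39), *Ttr* (-4.31) and *Apoa1* (-3.68) and for the cardiac genes *Tnnt2* (-3.40), *Myl7* (-2.49) and *Nkx2-5* (-1.54). It was more positive for *Gm12112* (6.88), *Gm26448* (4.77), *Trav5-2* (3.59), *Gbx2* (3.30), *Tdh* (2.30), *Dusp6* (1.90), *Hoxb1* (1.63) and *Hoxa5* (1.09). Of these, *Apoa1* and *Gm26448* reached the minimum level through another line only, and *Gm26448* was listed at 0 in every dK9.1 library compared. Other genes named above passed as well, such as *Hnf4a*, *Spry2*, *Etv4* and *Etv5*. *Gm12112*, a processed pseudogene, was at 66.5, 9.83 and 9.67 TPM in E14Tg2a on day 0 and listed at 0 there on day 8, and at 22.8, 7.8 and 0 TPM in dK9.1 on day 8.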

How the results depend on the processing

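The change within dK9.1 kept its counts within 1.5 times under all alternatives run, and no gene was called in opposite directions. Leaving out 1 library gave 1529 to 2068 higher and 1474 to 1783 lower genes, 129 to 153 listed genes higher (146 with all) and 54 to 58 lower (57 with all), and a log2 fold change of *Nanog* of -2.96 to -2.05. A pseudocount of 0.1 gave the highest counts, 2140 and 1979, and a minimum of 5 TPM the lowest, 1238 and 1131. Of 98 named genes past the thresholds, 85 stayed so under every alternative that gave a value. E14Tg2a gave 2348 to 2797 higher and 1669 to 1899 lower genes with 1 library left out, and dK9.2 1634 to 1930 and 1714 to 1946. With median-ratio rescaling E14Tg2a gave 2356 higher and 1975 lower genes, so its excess of higher genes shrank, and dK9.1 gave 1714 and 1598. Within dK9.1 same-numbered day 0 and day 8 libraries correlated at only 0.03 to 0.08 in their deviations, so the numbers were not taken to pair the days, and the replicate block gave 1729 and 1616 genes. The median SD on day 8 was 0.14 to 0.25 with 1 library left out, each taken from the remaining pair, lowest without replicate 3.

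The difference from E14Tg2a depended on the fit. The 40 more positive genes became 75 with median-ratio rescaling, 128 with the replicate block, 224 with the block within each day, 92 with all 33 libraries in the fit and 22 with the 12 of both lines. The 144 more negative became 305 with the replicate block, 541 with the block within each day, 301 with 33 libraries and 75 with 12. With 1 library left out the counts ran from 16 to 98 and from 41 to 372. The more negative count was 372 without dK9.1 day 8 replicate 2, 46 without its replicate 1, and 56, 48 and 71 without dK9.1 day 0 replicates 1, 2 and 3. It was 294, 52 and 41 without E14Tg2a day 0 replicates 1, 2 and 3, and 289, 67 and 75 without those of day 8. The more positive count was 98 and 22 without dK9.1 day 8 replicates 2 and 1, 16 and 21 without dK9.1 day 0 replicates 2 and 3, 23 and 19 without E14Tg2a day 0 replicates 2 and 3, 96 and 18 without E14Tg2a day 8 replicates 1 and 3, and 62 without dK9.2 day 8 replicate 1. Against dK9.2 the 0 more positive genes became 3 with the replicate block, 46 with the block within each day, 2 with 33 libraries and 1 each with a pseudocount of 0.1, no minimum, median-ratio rescaling or no trend, and 0 to 8 with 1 library left out, 8 being without dK9.1 day 0 replicate 1, 3 without dK9.2 day 0 replicate 3 and 1 without dK9.2 day 8 replicate 1. The 0 more negative became 8 with the block within each day and 0 to 1 with 1 library left out. The cause was not tested. TPM do not hold the depth of each library, so low genes were not given a floor.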
